A study of Mus musculus with 234 samples.

Results

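Decorin (Dcn), lumican (Lum), asporin (Aspn), periostin (Postn), Ccdc80, Aebp1, Igfbp6, Pdgfra and Tcf21 are 9 genes that mark fibroblasts and their matrix, and they were read here in single wells of hand-picked mouse cardiomyocytes (CMs). They are 9 of the 55538 features of the count table, and each was found by its symbol on 1 row. The 9 genes were chosen because their counts in a few of these same wells had been seen to be high, so their levels and their joint detection are described here without a test. Where a fit over all genes includes them, its counts and p-values are printed beside those of all genes as a description, and nothing is read from them. All 9 had a count in at least 1 well. After a filter on low counts, 8 of the 9 entered the comparison of homozygous bright with control CMs, 7 that of homozygous dim with control CMs, and 8 that of bright with dim CMs.

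Single CMs of 5 mice were sequenced with SMART-seq2, a full-length method without molecular identifiers. Control CMs, with the strain label C57BL/6, came from mice M26 (24 wells) and M73 (9 wells). Control animals were siblings of homozygous mice that carried no transgene, PGK-Cre alone or the unrecombined CAG-flox-hBAG3P209L-eGFP allele. Homozygous PGKcre:BAG3P209L_homo CMs came from mice M25 (21 bright and 18 dim wells) and M116 (59 bright and 50 dim wells), and heterozygous PGKcre:BAG3P209L_het CMs from mouse M72 alone (27 bright and 26 dim wells). The transgene, human BAG3 with the P209L change fused to eGFP behind the ubiquitous CAG promoter in the Rosa26 locus, is switched on where PGK-Cre has cut out a stop cassette, and a homozygous animal may have lost that cassette from 1 or both alleles. Control and homozygous mice were 2 weeks old, and the age of mouse M72 is not given in the sources used here. Bright and dim were told apart by eye under a fluorescence macroscope, and wells with little cDNA were dropped before libraries were made. The methods describe the transgenic lines as being on a mixed background, which the strain label of the controls does not show.

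Fibroblasts lie between the CMs of the heart and build most of its interstitial matrix, the network of collagens and proteoglycans that carries the force of each beat. During development they arise largely from the epicardium under the transcription factor Tcf21, keep the PDGF receptor alpha on their surface, and secrete decorin and lumican, small leucine-rich proteoglycans that bind collagen fibrils. Postn is known as a marker of activated fibroblasts and of the fetal and neonatal heart, in which the matrix is still being laid down. CMs themselves are known for contractile and calcium-handling genes and express little of this program.

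A well held 487 to 1392253 counts, with a median of 711527. In 15 wells fewer than 1000 genes were detected, and these wells held at most 2302 counts apart from 1 with 257487. The summed counts of a mouse and brightness label ran from 4096609 (control, mouse M73) to 40508124 (bright, mouse M116). Counts on hBAG, the human BAG3 sequence of the transgene, came to 0.408 and 0.488 CPM (counts scaled to the total of the sum) in the summed control wells, 294 and 233 CPM in homozygous bright wells and 10.7 and 99.6 CPM in homozygous dim wells. In mouse M72 the order was the other way round, with 105 CPM in the wells labelled het bright and 251 CPM in the wells labelled het dim. The brightness labels of that mouse therefore go against its transgene counts, and its wells are named below by their labels only.

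Many wells had no count of any of the 9 genes. In all, 117 wells had none, 55 had 1 gene, 32 had 2 genes and 30 had 3 or more. In mouse M25, a gene of the 9 was detected in 17 of 21 bright wells (81.0%; 95% exact Clopper-Pearson interval 58.1% to 94.6%, counting error only) and in 10 of 18 dim wells (55.6%; 30.8% to 78.5%). In mouse M116 the figures were 29 of 59 bright wells (49.2%; 35.9% to 62.5%) and 25 of 50 dim wells (50.0%; 35.5% to 64.5%). Control wells with such a count numbered 9 of 24 in mouse M26 (37.5%; 18.8% to 59.4%) and 5 of 9 in mouse M73 (55.6%; 21.2% to 86.3%). In mouse M72 there were 10 of 27 wells labelled het bright (37.0%; 19.4% to 57.6%) and 12 of 26 labelled het dim (46.2%; 26.6% to 66.6%). Detection was thus spread over all mice and labels, and the share in bright wells of mouse M25 was the highest of the 8.

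**Figure D1:**
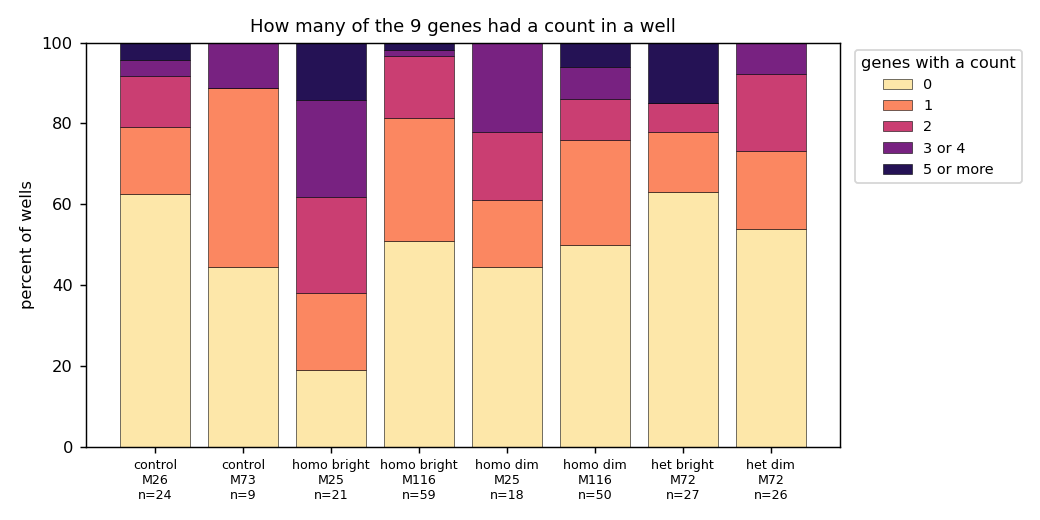
Share of wells (percent, vertical axis) with 0, 1, 2, 3 or 4, or 5 or more of the 9 genes detected at 1 count or more, in a stacked bar for each mouse and label, with the number of wells n under each bar. Wells with at least 1 of the 9 genes made up 37.5% of the control wells of mouse M26 and 81.0% of the bright wells of mouse M25.

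Detection of 3 or more of the 9 genes was rarer. It was seen in 8 of 21 bright and 4 of 18 dim wells of mouse M25, 2 of 59 bright and 7 of 50 dim wells of mouse M116, 2 of 24 and 1 of 9 control wells, 4 of 27 wells labelled het bright and 2 of 26 labelled het dim. Averaged over the mice of a group, the share was 20.7% ± 24.5 (SD, n = 2) in bright, 18.1% ± 5.81 (SD, n = 2) in dim and 9.72% ± 1.96 (SD, n = 2) in control wells. The bright value has the widest spread because its mice gave 38.1% and 3.39%. When every well was thinned to 200000 counts, which left out 20 shallower wells, 20 of 214 wells still had 3 or more of the genes, against 30 of all wells without thinning.

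Most counts lay in few wells. A well was called member-rich where 3 or more of the 9 genes had 10 or more counts each, and there were 14 such wells, which held 92.4% of all 44351 counts of the 9 genes. They came from mouse M25 (4 bright and 1 dim well), mouse M116 (2 bright and 3 dim wells), mouse M72 (3 wells labelled het bright) and control mouse M26 (1 well), and from all 4 plates. Neither control mouse M73 nor the wells labelled het dim held any. The 2 wells just inside the threshold, with 3 genes at 10 counts, had 103 and 532 CPM of the 9 genes, and the 12 wells just outside it, with 2 genes at 10 counts, ranged from 35.7 to 1963 CPM. The highest of the latter was well E4 of plate GL9989-1, labelled het bright, which held only 65717 counts in all.

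**Figure D2:**
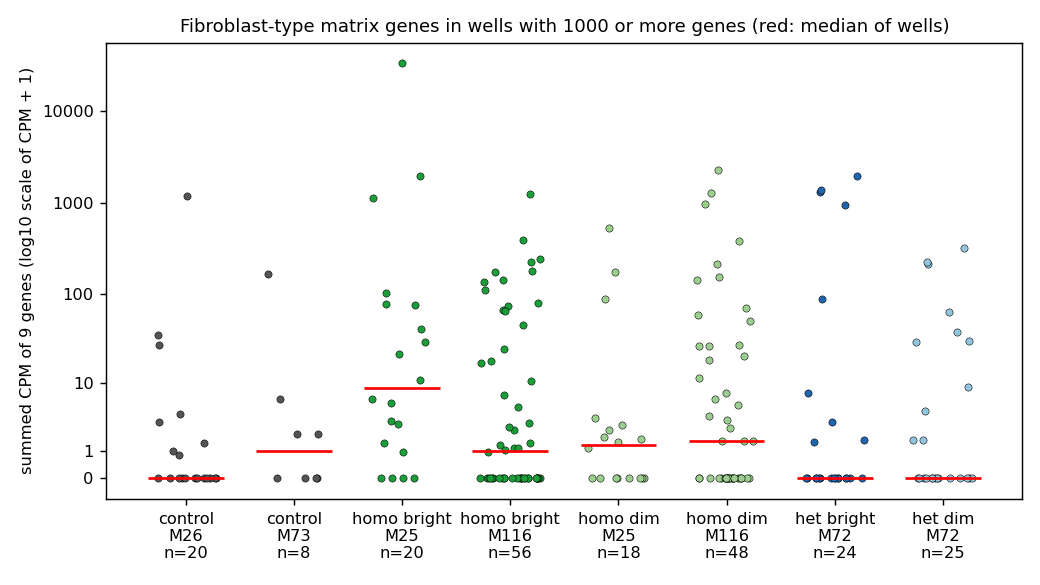
Summed CPM of the 9 genes (vertical axis, log10 scale of CPM + 1) in each of the 219 wells with 1000 or more genes detected, by mouse and label, 1 point per well. Red lines mark the median of the wells; most points lie at or near 0, and a single well, C8 of mouse M25, reaches 33278 CPM.

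One well stood apart from all others. Well C8 of plate GL-9122b, a bright well of mouse M25, held 849593 counts on 3143 genes and 28273 counts of the 9 genes, which is 33278 CPM and 14.4 times the next well (2307 CPM). It alone held 63.7% of all counts of the 9 genes in the series. All 9 genes were present, and 8 of them were higher in CPM than in any other well, Tcf21 with 2 counts being the exception. Per kilobase of exon, with the exons of all annotated transcripts of a gene merged, Dcn was at 3263 CPM per kb in this well. Igfbp6 followed at 762, Ccdc80 at 607, Postn at 595, Aspn at 579, Aebp1 at 442, Lum at 406 and Pdgfra at 144 CPM per kb. The transcription factor Tcf21 was at 1.00 CPM per kb. A merged length can exceed that of the transcript read, so this order depends on the annotation. Without the scaling Postn was at 5180, Ccdc80 at 2606 and Igfbp6 at 847 CPM.

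The label of well C8 is that of a CM, and the CM markers went against it. The 10 CM markers summed to 1485 CPM, the lowest of all wells with 1000 or more genes, where the next lowest was 2154 CPM, in a well with 231232 counts, and the third lowest 48234 CPM. Of the 10 markers, 8 were below their lowest CPM in the 218 other wells with 1000 or more genes, and 6 were below it in all 233 other wells. Myh6, the alpha myosin heavy chain, had 20 counts, Tnnt2 (cardiac troponin T) 20 and Pln (phospholamban) 3, while the calcium pump gene Atp2a2 kept 769 counts and the ventricular light chain gene Myl2 316. All 10 endothelial markers, all 8 epicardial and mesothelial markers, all 5 Schwann cell markers and all 5 red blood cell genes were at 0, which allows up to 3 counts each. A single mural marker gene, Acta2, had 1 count and 1 of 10 immune markers had a count. The transgene was present, with 737 counts of hBAG, the highest CPM of hBAG of all wells, and 121 of BAG-eGFP. The main values that rest on this well are therefore given with and without it.

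**Figure D3:**
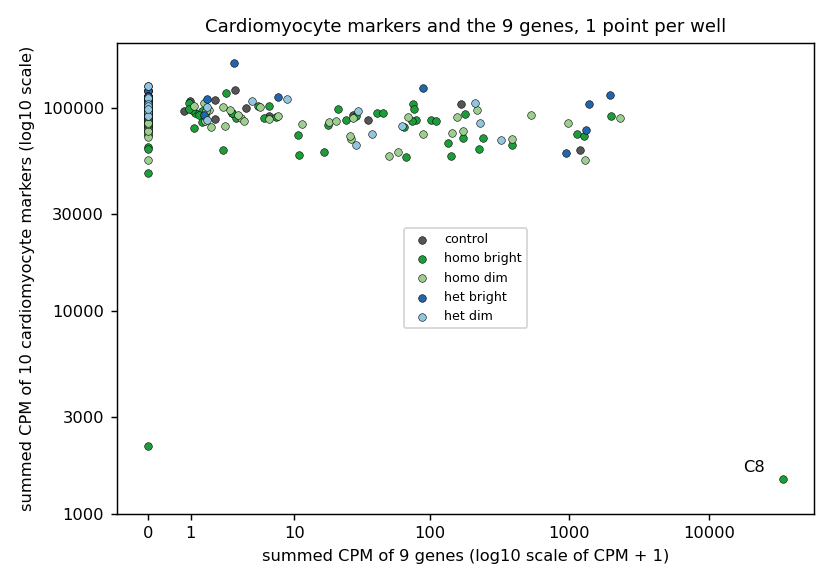
Summed CPM of 10 CM markers (vertical axis, log10 scale) against summed CPM of the 9 genes (horizontal axis, log10 scale of CPM + 1), 1 point per well with 1000 or more genes, coloured by label. Well C8 lies alone at 1485 and 33278 CPM, while the other 13 member-rich wells lie between 55975 and 105216 CPM of CM markers.

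In contrast to well C8, the other 13 member-rich wells were rich in CM markers. The summed CM markers ranged from 55975 to 105216 CPM with a median of 78475, against a median of 92267 CPM (2154 to 166773) in the 205 remaining wells with 1000 or more genes. By plate, member-rich wells had medians of 81194 against 96837 CPM in the remaining wells on plate GL-9122b (with C8), 78475 against 105770 on GL9989-1, 87183 against 87070 on GL9989-2 and 66063 against 85412 on GL9989-3. Well B1 of plate GL9989-1 (60192 CPM) and well H7 of plate GL9989-3 (55975 CPM) lay below every remaining well of their plates, whose lowest were at 66232 and 61246 CPM. The depth of the 13 wells was 541665 to 1268304 counts (median 850920), against a median of 715493 in the remaining wells, and they had 4592 to 10717 genes detected (median 6576, against 5550). Endothelial markers, which mark capillary cells, had a median of 345 CPM in the 13 wells (0 to 3691) and 1.18 CPM in the remaining wells (0 to 4615). Mural cell markers had medians of 1965 and 1160 CPM, while the highest immune marker sum in the 13 wells was 1.23 CPM. The part of depth and of these other cells' genes in the counts of the 9 genes was not tested.

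**Figure D4:**
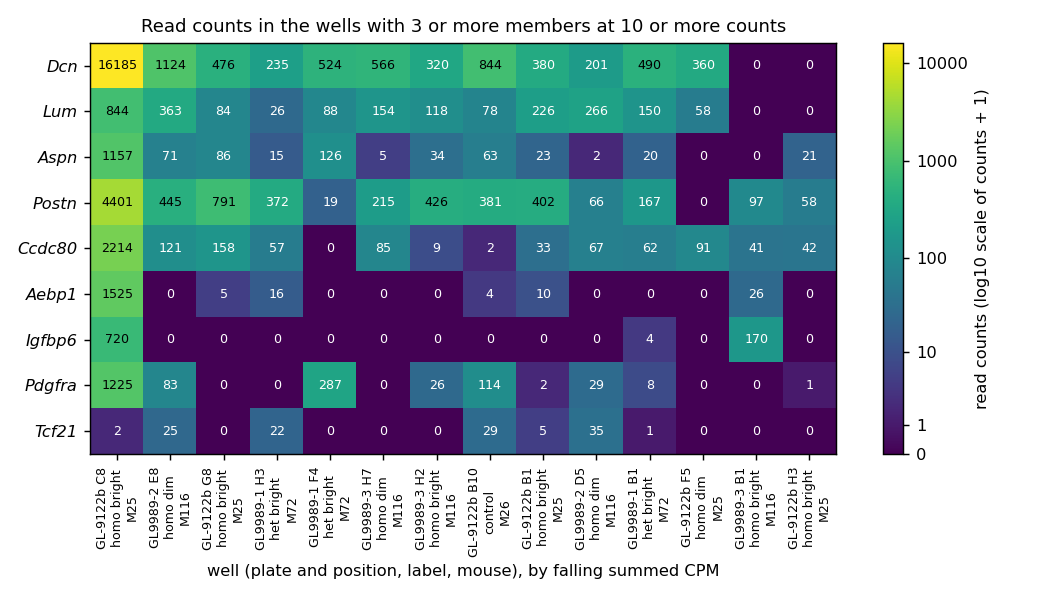
Read counts of each of the 9 genes (rows) in the 14 member-rich wells (columns, named by plate and position, label and mouse, in falling order of summed CPM), with the count written in each cell and coloured on a log10 scale of counts + 1. Dcn is read in 12 of the 14 wells and reaches 16185 counts in well C8, whereas Igfbp6 is read in 3.

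The genes differed in how far they depended on well C8. It held 95.6% of the counts of Aebp1, 80.5% of those of Igfbp6 and 72.8% of those of Dcn. The share was 62.2% for Pdgfra, 61.0% for Aspn, 53.8% for Ccdc80 and 49.0% for Postn. The least concentrated of the 8 genes that peaked there was Lum, with 33.2%. For Tcf21 the highest well was another one, with 35 of 123 counts.

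Dcn, which binds collagen fibrils and regulates their assembly, had 22241 counts in 54 wells. In the sums of a mouse and label it was at 44.9 CPM in control mouse M26 and 15.9 CPM in control mouse M73, at 905 and 12.7 CPM in bright wells and at 20.2 and 56.4 CPM in dim wells of mice M25 and M116. It was at 97.3 CPM in the wells labelled het bright and 0.665 CPM in those labelled het dim. Only 1 of these sums, that of bright wells of mouse M25, lay above 100 CPM, and 16185 of its 17111 Dcn counts came from well C8, without which it was at 51.3 CPM. In control mouse M26, 844 of 879 Dcn counts came from 1 well, B10 of plate GL-9122b.

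Lum, which encodes lumican, a keratan sulfate proteoglycan of collagen fibrils, followed Dcn closely. Its 2541 counts lay in 26 wells, of which 19 also held Dcn, and the Pearson correlation of the pair over 219 wells was 0.87 on the log2(CPM + 1) scale (0.86 without well C8). In the sums, Lum was at 4.03 and 0.244 CPM in control mice M26 and M73, 63.7 and 3.38 CPM in bright wells and 3.26 and 22.8 CPM in dim wells of mice M25 and M116. The bright wells of mouse M25 were at 19.98 CPM without well C8, below the dim wells of mouse M116. It was at 19.6 CPM in the wells labelled het bright and 0.148 CPM in those labelled het dim. Dcn and Lum are neighbours on chromosome 10 of the GRCm38 build, with 46984 bases between them (Dcn, 97479609 to 97518143; Lum, 97565128 to 97572703, both on the plus strand).

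Aspn, a proteoglycan of the same family that binds TGF-beta and calcium, was found in 33 wells with 1896 counts. It was at 3.27 and 0 CPM in control mice M26 and M73, 69.6 and 1.18 CPM in bright wells and 0.925 and 2.73 CPM in dim wells of mice M25 and M116. The 0 of mouse M73 allows up to 0.732 CPM, and without well C8 the bright wells of mouse M25 were at 8.86 CPM. The wells labelled het bright and het dim were at 11.7 and 14.3 CPM. Aspn is the gene of the 9 for which wells labelled het dim held the most wells at 10 counts or more, with 5 wells of 17, 18, 22, 47 and 89 counts. In none of these 5 wells did Dcn exceed 3 counts or Lum 0.

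Postn, a matricellular protein that links collagen to cell surfaces, had 8973 counts in 46 wells. It was at 20.1 and 0.732 CPM in control mice M26 and M73, 299 and 20.3 CPM in bright wells and 13.8 and 29.3 CPM in dim wells of mice M25 and M116. Leaving out well C8 put the bright wells of mouse M25 at 69.4 CPM, still the highest of the 8 sums. The sums of mouse M72 were 44.5 CPM for wells labelled het bright and 16.2 CPM for those labelled het dim. Among member-rich wells, Postn was read at 10 counts or more in 13 of 14, more than any other of the 9 genes. By correlation its closest partner was Aspn, with r = 0.76 over 219 wells and 22 wells in common. It shared more wells, 26, with Ccdc80, at r = 0.50.

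Because Postn and Aspn varied together across wells, the sequences upstream of their starts are shown, as RefSeq gives them for GRCm38.p6, with letters in capitals where a TATA box (TATAAA) or an E-box (CANNTG) was found on either strand. Both genes lie on the plus strand, and the runs are chr3:54360857-54361106 for the start of Postn nearest to its GENCODE start, and chr13:49544193-49544442 for Aspn.
Postn: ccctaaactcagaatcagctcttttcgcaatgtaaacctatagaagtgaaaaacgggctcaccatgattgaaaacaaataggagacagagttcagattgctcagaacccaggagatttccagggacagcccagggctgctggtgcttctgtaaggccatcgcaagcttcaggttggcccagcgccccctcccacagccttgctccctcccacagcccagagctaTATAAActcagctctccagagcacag
Aspn: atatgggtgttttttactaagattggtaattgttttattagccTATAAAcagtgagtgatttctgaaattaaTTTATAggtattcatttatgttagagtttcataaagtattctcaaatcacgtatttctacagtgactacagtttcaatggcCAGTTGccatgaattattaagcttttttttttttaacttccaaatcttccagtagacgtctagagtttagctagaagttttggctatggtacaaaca
In windows of 250 bases before to 50 bases after a start, a TATA box was found in 3 of 7 windows of the 6 genes with an entry (Postn with 2 starts, Pdgfra, Tcf21, Aebp1, Aspn and Igfbp6) and in 13.6% of 32851 promoters. An E-box was found in 3 of the 7 windows and in 72.3% of all promoters. The letters TGANTCA (AP-1) and GGAATG (TEAD) were in none of the 7 windows, and in 7.81% and 14.7% of all promoters. The Postn box lies close to the start of the gene, and the boxes of Aspn lie further upstream, 1 of them on the minus strand. These are descriptions of letters in a window and not of binding.

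Ccdc80, a secreted matrix protein that binds glycosaminoglycans, was the most widely detected of the 9 genes, with 4118 counts in 56 wells, of which 35 had 10 or more. It was at 0.153 and 0.488 CPM in control mice M26 and M73, with at most 2 counts in a well, and at 134 and 13.0 CPM in bright wells and 6.53 and 23.0 CPM in dim wells of mice M25 and M116. The wells labelled het bright and het dim were at 9.60 and 1.26 CPM. Without well C8 the bright wells of mouse M25 were at 17.3 CPM. Every sum of homozygous wells was above both control sums, with or without that well. With all wells, both bright sums lay above both control sums for 33.7% of all genes tested, and both dim sums for 32.5%. Nothing is therefore read from this order. Ccdc80 was often read by itself. In 11 wells with 10 or more counts of Ccdc80 (14 to 127) it was the only one of the 9 genes with a count, all 11 wells were of mouse M116, and 1 of them had a count of Col1a2 and 1 a count of Col3a1. At 1 to 5 counts it was alone in 8 more wells, 3 of mouse M116 and 5 of other mice.

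Aebp1, a collagen-binding protein that is released into the matrix, had 1596 counts in 12 wells, of which 1525 were in well C8. It was at 0.255 and 0 CPM in control mice M26 and M73, 81.7 and 0.642 CPM in bright wells and 0.109 and 0 CPM in dim wells of mice M25 and M116. The wells labelled het bright were at 1.30 CPM and those labelled het dim at 0. Outside well C8 the counts reached at most 26. In mouse M116 all 26 counts came from 1 bright well, B1 of plate GL9989-3, so that the value of this mouse rested on a single well. Without well C8 the bright wells of mouse M25 kept 20 counts in 5 wells, or 1.11 CPM, above both control and both dim sums.

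Igfbp6, a secreted protein that binds insulin-like growth factor 2, was read in 3 wells only, with 720 counts in well C8, 170 in well B1 of plate GL9989-3 (bright, mouse M116) and 4 in well B1 of plate GL9989-1 (labelled het bright). The sums were 38.1 and 4.20 CPM in bright wells of mice M25 and M116 and 0.289 CPM in wells labelled het bright. All other sums were 0, which allows up to 0.153 and 0.732 CPM in the control wells of mice M26 and M73. All 3 wells with Igfbp6 also held Postn and Ccdc80. Without well C8 the bright wells of mouse M25 had no count.

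Pdgfra, the receptor for PDGF on fibroblasts and their precursors, had 1969 counts in 19 wells. It was at 6.94 and 0 CPM in control mice M26 and M73, 66.2 and 4.25 CPM in bright wells and 0 and 3.25 CPM in dim wells of mice M25 and M116. With well C8 left out, the bright wells of mouse M25 were at 1.49 CPM, below control mouse M26 and below the dim wells of mouse M116. Pdgfra was at 21.4 CPM in the wells labelled het bright, with 287 of 297 counts from well F4 of plate GL9989-1, and at 0 in those labelled het dim. Of its 9 wells with 10 counts or more, 6 were member-rich. In the other 3, with 21, 17 and 144 counts, Dcn was at 0.

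Tcf21, a helix-loop-helix factor required for cardiac fibroblast formation, had 123 counts in 9 wells. The highest counts were 35 in well D5 and 25 in well E8 of plate GL9989-2 (dim, mouse M116), 29 in control well B10 and 22 in well H3 of plate GL9989-1 (labelled het bright). It was at 1.48 and 0.244 CPM in control mice M26 and M73, 0.370 and 0.0741 CPM in bright wells and 0 and 1.74 CPM in dim wells of mice M25 and M116 (0.277 CPM in the bright wells of mouse M25 without well C8). The wells labelled het bright were at 1.66 CPM and those labelled het dim at 0. Of its 9 wells, 8 also held Dcn and 8 also held Ccdc80.

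Over the 36 pairs of the 9 genes, the Pearson correlation over the 219 wells with 1000 or more genes ran from 0.12 (Igfbp6 and Tcf21) to 0.87 (Dcn and Lum) with a median of 0.47. Without well C8 it ran from 0.013 to 0.86 with a median of 0.41. The points share their well's depth and its zeros, and wells of 1 mouse are not independent, so no test is given. Dcn shared 20 of its 54 wells with Ccdc80 and 20 with Aspn, and the 20 wells are 35.7% of those of Ccdc80 and 60.6% of those of Aspn.

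The composition of the member-rich wells was not uniform. Dcn made up a median of 42.7% of the counts of the 9 genes (0 to 70.7%), Postn 23.1% (0 to 50.1%), Lum 9.91% (0 to 39.9%) and Ccdc80 7.75% (0 to 34.4%). In well B1 of plate GL9989-3, Igfbp6 made up 50.9% and Dcn and Lum had no count. In well F4 of plate GL9989-1, Pdgfra made up 27.5% and Ccdc80 had no count.

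The 10 genes outside the list whose log2(CPM + 1) was most like that of the summed 9 genes, over 219 wells and among 11199 genes with a count in at least 20 of these wells, are listed here in falling order. They were Col1a2 (r = 0.74) and Col3a1 (r = 0.72), the fibrillar collagens, Fstl1 (0.71), fibronectin (Fn1, 0.68), fibrillin (Fbn1, 0.68), nidogen (Nid1, 0.67), biglycan (Bgn, 0.66), matrix Gla protein (Mgp, 0.65), Col6a1 (0.64) and the matrix metalloprotease Mmp2 (0.64). The lowest correlation of the 10 was 0.641 and the next gene had 0.638. With Spearman's rho 7 of the 10 genes stayed among the 10 most alike, and 9 without the 2 wells of highest CPM. The 5 lowest correlations were those of Ogdh (-0.33), Myh6 (-0.30), Itgb1bp2 (-0.29), Ttn (-0.29) and ND2 (-0.29).

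Collagen genes were high in the same wells as the 9 genes. Of 14 collagen genes, 10 had a count in well C8, all 10 above their highest CPM in the 218 other wells with 1000 or more genes and 8 above it in all 233 other wells, and they summed to 37518 CPM there. Col3a1 had 9847 counts, Col1a2 6009, Col1a1 4057 and Col6a2 3637 in well C8, while Col14a1, a collagen of fibril surfaces that was read in 11 of the 14 member-rich wells, had none. In the other 13 member-rich wells collagen genes summed to 85.0 to 3763 CPM (median 1559), and in the remaining 205 wells the median was 0 and the highest value 1567 CPM. On each of the 4 plates the median of member-rich wells was above that of the remaining wells, with 1230 against 1.07 CPM on plate GL-9122b, 2444 against 0 on GL9989-1, 3154 against 1.21 on GL9989-2 and 1243 against 0 on GL9989-3.

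The other proteoglycan genes differed in where they were read. Ogn (osteoglycin), of the family of Dcn, was detected in 194 wells, 181 of them not member-rich, with a median of 53.6 CPM there, and Bgn in 36 wells, among them all 14 member-rich wells. Vcan (versican) was found in 18 wells, 9 of them member-rich, and Prelp in 14 wells, 9 of them member-rich. Fmod had no count in any well. Among the 32 other fibroblast genes, Sparc was read in 210 wells, Lamc1 in 195, Pcolce in 130 and Gsn in 90, and 24 of the 32 had a count in well C8. Sparc, a collagen-binding protein, was at 10838 CPM in well C8 and at a median of 160 CPM in wells that were not member-rich.

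Of the 17 PDGF and TGF-beta genes, 3 had a count in well C8, and neither the ligand gene Pdgfa nor Tgfb2 was among them. Ltbp3, a latent TGF-beta binding protein of the matrix, had 2161 counts there (2544 CPM), against at most 322 CPM in any other well. Ltbp1, which anchors latent TGF-beta in the matrix, was the gene of the list with a count in the most wells, 181. Of the 9 IGF genes, 5 were read in well C8, with Igfbp4 at 1092, Igfbp7 at 1053 and Igf2r at 894 counts. Igf2r, the receptor that clears insulin-like growth factor 2, was detected in 212 wells.

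The comparison of homozygous bright with control CMs asks what high transgene expression goes along with. Counts were summed over the wells of a mouse and compared with edgeR's quasi-likelihood test, 2 mice against 2, over 12203 genes, of which 2 were called at an adjusted p of 0.05 (0.0164%), both of them transgene features. None of the 8 of the 9 genes that were tested was called. With the plate series as a block, edgeR called Postn (log2 fold change 3.93 ± 0.56, adjusted p = 0.0127) and 0.0819% of all genes. Without well C8 that block fit called none of the 7 genes still tested and 0.0905% of all genes, and Postn was at 2.77 ± 0.95 (adjusted p = 0.870). At an unadjusted p under 0.05 there were 3 (Aebp1, Ccdc80 and Igfbp6), where 4.70% of all genes were higher at that threshold, and DESeq2 called 3 (0.869% of all genes). Both bright mice were above both control mice for Aebp1, Ccdc80, Igfbp6 and Postn, as were 33.7% of all genes. These shares describe the fit, and since the genes were chosen on these wells nothing is read from them.

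The estimates of the genes that passed the filter ran from a log2 fold change of 3.06 ± 1.88 (SE) for Pdgfra to 7.90 ± 1.58 for Ccdc80, apart from Igfbp6. Igfbp6 passed through the bright wells alone, and against the mean limit of 3 counts in each control sum it was at least 47.7-fold higher. With well C8 left out, this bound was 4.74-fold and rested on mouse M116, since the bright wells of mouse M25 then held no count. The median was 3.89 with Igfbp6 at that bound and 3.67 without it, where the median of all genes was 0.11. It rested on mouse M25, without whose bright wells the median of the 9 genes then tested was 0.38, with Dcn at -1.55 ± 1.41, Aspn at -0.74 ± 4.14 and Postn at 0.70 ± 1.79. Without control mouse M26 the fitted median was 9.61, a value that is no bound, since Aebp1, Aspn, Igfbp6 and Pdgfra had no count in control mouse M73. Tcf21 did not pass the filter and had the other direction, with 0.370 and 0.0741 CPM in bright against 1.48 and 0.244 CPM in control wells and a log2 fold change of -2.21 ± 3.08 when no filter was set. Without well C8 the median of the 7 genes still tested was 1.87. Dcn went from 3.66 ± 1.66 to -0.17 ± 0.83 and Pdgfra from 3.06 ± 1.88 to -0.55 ± 1.94. Ccdc80 kept 5.45 ± 1.43 of 7.90 ± 1.58, and Postn 1.87 ± 1.28 of 3.67 ± 1.61. In control mouse M26, well B10 held 1515 of the 1588 counts of the 9 genes. When the well of highest summed CPM was left out of each mouse and label, the 5 genes still tested had a median of 4.03, with Postn at 5.57 ± 1.27, Pdgfra at 1.68 ± 1.83 and Dcn at 1.36 ± 1.42. In control mouse M73 this took out well E9, with 487 counts in all, and kept well D11 with 65 of the 72 counts of the 9 genes. When the well with the most counts of the 9 genes was left out instead, an alternative chosen after seeing the data, the median was 4.46 and Dcn was at 4.46 ± 1.77 with no count left in mouse M73. The control sums then held 3 counts of Ccdc80 and 1 of Aebp1, for ratios of bright to control CPM of 105 (95% exact interval 35.8 to 511, counting error only) and 17.5 (2.99 to 707).

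In summed CPM of the 9 genes, the bright wells of mouse M25 were at 1657 and those of mouse M116 at 59.7, and the control wells at 81.1 in mouse M26 and 17.6 in mouse M73. The groups overlapped, with the bright wells of mouse M116 below the control wells of mouse M26. Without well C8, mouse M25 was at 170 CPM. By plate name the wells fall into the series GL-9122b (mice M25 and M26) and GL9989 (mice M116 and M73), each with 1 mouse of each group. Bright was above control in both series. In the second, control mouse M73 lay on GL9989-1 (17.6 CPM), and the bright wells of mouse M116 lay on GL9989-2 (21.9 CPM) and GL9989-3 (99.2 CPM). No plate of that series held both, so plate and group cannot be told apart there. The genes of other lists were not called either. For the collagen genes, all 11 tested estimates were above 0 with a median log2 fold change of 3.50, and 1 (Col1a2, 4.11 ± 1.37) had an unadjusted p under 0.05. Without well C8, 5 of the 11 were above 0, the median was -0.19 and none had an unadjusted p under 0.05. For the CM markers all 10 were below 0, with a median of -0.67 and 4 at an unadjusted p under 0.05. Without well C8, 9 were below 0 with a median of -0.61 and 1 at that threshold. Of the other fibroblast genes 24 of 25 tested were above 0, and 13 of 24 without well C8. Epicardial and mesothelial markers were above 0 in 2 of 3, mural cell markers in 3 of 7 and endothelial markers in 3 of 10. At an unadjusted p under 0.05 lay 2, 2 and 1 of these, where 799 of all 12203 genes did. Their part in the values of the 9 genes was not tested.

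Between homozygous dim and control CMs, none of 12195 genes was called by edgeR (0.00%), with 759 at an unadjusted p under 0.05 and 55 called by DESeq2 (0.451%). Of the 9 genes, 7 were tested. Their log2 fold changes ranged from -1.38 ± 2.58 (Pdgfra) to 5.37 ± 1.57 (Ccdc80) with a median of 0.05, where all genes had a median of 0.10. This median changed with single wells and mice. With the well of highest summed CPM left out of each mouse and label, the 5 genes still tested had a median of 3.96, and Postn went from 0.78 ± 1.30 to 4.20 ± 1.25. With the well of most counts left out it was 3.93, Postn was at 4.13 ± 1.30 and Dcn at 3.30 ± 2.18, and Aspn, with 1 control count left, had a ratio of dim to control CPM of 17.3 (95% exact interval 2.93 to 701, counting error only). Without control mouse M26 the fitted median was 4.53, a value that is no bound, since Aspn and Pdgfra had no count in control mouse M73. With the plate series as a block, which called 0.0984% of all genes and none of the 7, the median was 1.08. Ccdc80 was the only one with an unadjusted p under 0.05 (4.40% of all genes were higher at that threshold) and the only one with both dim mice above both control mice (32.5% of all genes). DESeq2 called 1 of the 7. In summed CPM of the 9 genes, dim wells of mouse M25 were at 44.9 and those of mouse M116 at 139, so that these mice enclosed the value of control mouse M26 (81.1). Of the immune markers, 9 of 9 tested estimates lay above 0 in dim CMs, none of them called and 3 at an unadjusted p under 0.05. Of the endothelial markers 9 of 10 and of the epicardial and mesothelial markers 3 of 3 tested estimates were above 0, none called and 1 of each list at an unadjusted p under 0.05. Their part in the values of the 9 genes was not tested.

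The bright and the dim CMs compared next were picked from the same homozygous animals, M25 and M116. None of 13439 genes was called by edgeR (0.00%), with or without the mouse as a block, and DESeq2 called 89 (0.662%), among them 1 of the 8 tested of the 9 genes. At an unadjusted p under 0.05 there were Aebp1 and Igfbp6 (2.03% of all genes were higher at that threshold), and both bright sums were above both dim sums for Aebp1, Igfbp6 and Pdgfra (16.2% of all genes). Aebp1 and Igfbp6 passed the filter through the bright wells, which had also been used to choose the genes, so nothing is read from these counts. The log2 fold changes of 6 of the tested genes ran from 1.40 ± 1.43 (Lum) to 4.43 ± 1.99 (Pdgfra). Aebp1 had 1571 counts in bright and 2 in dim wells, a ratio of CPM of 698 (95% exact interval 193 to 5771, counting error only). With well C8 left out, Aebp1 had 46 counts in bright wells, a ratio of 20.7 (5.43 to 176), and a log2 fold change of 4.01 ± 2.09. These counts still include wells that share a library index sequence with well C8. Igfbp6, at 0 in both dim sums, was at least 169-fold higher in bright wells against the mean limit of 3 counts in each dim sum, a bound of 16.8-fold when well C8 was left out. The median of the 8 was 3.95 with Igfbp6 at that bound and 3.62 without it, against -0.01 for all genes. Tcf21 was not among the tested genes, and its log2 fold change was -1.95 ± 2.77 when no filter was set. Without well C8 the median was 0.81, Dcn was at -0.22 ± 0.77 and Lum at -0.10 ± 1.13. With the mouse as a block, the median of the 8 genes was 2.16. Of the markers of other cells none was called. All 9 tested immune markers and all 10 endothelial markers had estimates below 0 in bright CMs, 7 of each at an unadjusted p under 0.05. Of all 13439 genes, 554 were at that threshold in either direction. The part of these markers in the values of the 9 genes was not tested. The mice went opposite ways in summed CPM, since bright lay above dim in mouse M25 (1657 and 44.9, or 170 without well C8) and below dim for mouse M116 (59.7 and 139).

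In the single heterozygous mouse, wells labelled het bright summed to 207 CPM of the 9 genes and wells labelled het dim to 32.6 CPM, with no replicate of either. All 9 genes had a count in the wells labelled het bright, whereas Aebp1, Igfbp6, Pdgfra and Tcf21 had none in those labelled het dim. Of the 2874 counts of the former, 1044 came from well F4, 902 from well B1 and 743 from well H3. For Dcn the sums were 1349 and 9 counts, and for Aspn 162 and 194.

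Low counts on plate GL-9122b went along with the index sequences of the libraries. Each well has its own pair of index sequences, and some wells of a plate have 1 of the pair in common. Of 23 wells that share the second index with well C8, 15 had 1 to 9 counts of the 9 genes, 3 had none and 5 had 10 or more. Of 38 wells that share neither index with it, 5 had 1 to 9 counts, 24 had none and 9 had 10 or more. The difference was seen in control wells of mouse M26 (6 of 10 and 0 of 14 wells with 1 to 9 counts), in dim wells of mouse M25 (5 of 6 and 2 of 12) and in bright wells (4 of 7 and 3 of 12).

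**Figure D5:**
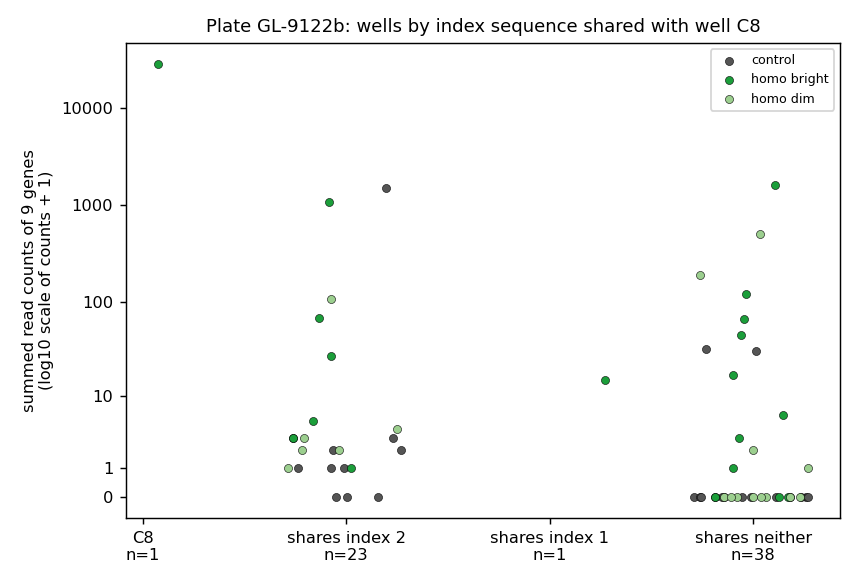
Summed read counts of the 9 genes (vertical axis, log10 scale of counts + 1) in the 63 wells of plate GL-9122b, grouped by the index sequence they share with well C8 and coloured by label, 1 point per well. Of the 23 wells that share the second index, 15 lie at 1 to 9 counts, against 5 of the 38 that share neither.

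The same grouping around the richest well of the other plates gave shares of wells with 1 to 9 counts of 6 of 23 and 9 of 37 on GL9989-1, 4 of 23 and 5 of 33 on GL9989-2, and 4 of 17 and 6 of 31 on GL9989-3, for wells that share the second index and wells that share neither. The first index was shared by few wells, of which 0 of 1 on GL9989-1, 1 of 1 on GL9989-2 and 2 of 2 on GL9989-3 had 1 to 9 counts, and the 1 on GL-9122b had 10 or more. Of the 12 wells with Aebp1, 6 share the second index with well C8. The part of index sharing in the detection of the 9 genes was not tested, and shares of wells with 1 or more counts on plate GL-9122b are to be read beside it. Wells with 10 or more counts, summed over the 9 genes, were 5 of 23 and 9 of 38. Member-rich wells are defined on the counts of each gene instead, and the part of index sharing in them was not tested either.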

How the data were processed

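SMART-seq2 libraries of hand-picked wells of 5 mice were sequenced, and the authors mapped reads with STAR to a mouse reference extended by human BAG3 and eGFP transcripts. The deposited counts are whole-number read counts per gene from STAR's GeneCounts option, not normalized; the genome build, annotation and strand column are not given in the sources used here, so that overlapping and near-identical genes are uncertain. Positions are from GENCODE M21 (GRCm38), matched by symbol.

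From the counts, CPM per well and sums per mouse and label were computed (Python 3.11.15, pandas 2.3.3). Sums, 2 mice per group, were compared with edgeR 4.0.16 in R 4.3.3 (filterByExpr, TMM, glmQLFit, glmQLFTest, Benjamini-Hochberg, threshold 0.05). The code was also run on simulated counts with the same low dispersion for all genes. That run does not cover genes whose counts lie mostly in single wells. Standard errors were derived from the F statistic. Reads carry no molecular identifiers, so intervals and the 3 counts that a 0 allows cover counting error only. Correlations used wells with 1000 or more genes and a pseudocount of 1 CPM. Depth per well was 487 to 1392253 counts. No doublet caller was run, and no well was left out of the sums.

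The 9 genes and the gene lists were chosen with earlier results of these data known. Named are the 9 genes, the 10 genes most alike, the 4 collagen, proteoglycan and fibroblast genes each in most wells, 1 gene of other lists, and called list genes; genes named beside these in well C8, and the genes least alike, were chosen after their values were seen. Alternatives were DESeq2 1.42.0, library size scaling, no filter, wells with 1000 or more genes, omission of the well of highest CPM per mouse and label, plate series or mouse as a block, and omission of mice; omission of well C8, also with the block, and of the well with most counts of the 9 genes per mouse and label were added after seeing the data. Bright and dim wells of mice M25 and M116 are paired by animal; across 13439 genes the mouse difference in bright correlated with that in dim wells with r = 0.075 (Spearman rho = 0.10).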

Additional observations from a re-analysis of the deposited data

Results flagged for a closer look

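The wells labelled het bright of mouse M72 summed to 207 CPM of the 9 genes (Dcn, Postn, Ccdc80, Aebp1, Igfbp6, Aspn, Lum, Pdgfra and Tcf21), above both control sums of 81.1 and 17.6 CPM. This mouse entered no comparison, because it is the only heterozygous animal, and the difference was not tested.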

How the results depend on the processing

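Of 278 values of one of the 9 genes under an alternative, 219 moved by less than the SD between mice and 59 by more; 29 had the other sign. The number of genes called depended on the test and filter. Homozygous bright against control gave 2 genes, 106 with DESeq2, 163 without a filter on low counts, 10 with the plate series as a block (11 also without well C8), and 0 to 41 without 1 mouse. Dim against control gave 0, 55 with DESeq2, 58 without a filter, 12 with the plate series as a block, and 3 to 827 without 1 mouse, the highest without control mouse M26. Bright against dim gave 0, 89 with DESeq2, 217 without a filter, and 0 to 74 without 1 sum; with the replicate block, pairing bright and dim sums of a mouse, it gave 0. Without a filter 163 of 20705 genes were called in bright against control CMs, among them 6 of the 9 genes. In bright against dim CMs 217 of 21866 genes were called without a filter, among them 7 of the 9. Leaving out the bright sum of mouse M116 kept 1 bright mouse. The median log2 fold change of the 9 genes was then 4.64 against control and 4.596 against dim CMs. With the plate series as a block 10 of 12203 genes were called in bright against control CMs, among them Postn. Since the 9 genes were chosen on these wells, nothing is read from these counts. With a minimum of 10 counts, 14 wells had 3 or more of the 9 genes instead of 30, and 18 to 29 wells without 1 mouse, the lowest without mouse M25. A mouse left alone in its group was assumed to vary like the others. The cause of these differences was not tested. Igfbp6, Tcf21 and Aebp1 were read in 3, 9 and 12 wells, so that their values rest on few wells.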
